A study of Mus musculus with 4 samples.

Results

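Chromatin accessibility was described here for Clec7a and for 5 neighbouring lectin genes of mouse chromosome 6, Clec1a, Clec1b, Clec9a, Clec12a and Olr1. The members were all deposited ATAC-seq peaks that overlapped one of these gene bodies or the 10 kb on either side of it (GRCm38, GENCODE M21). They came to 141 distinct peaks of 676057, which merged into 57 regions of 388087, each counted once where windows overlapped. The gene cluster was chosen by measured values, since Clec7a had been seen to hold regions called in one genotype only, so the genotype values below are a description and carry no test. With 2 libraries against 2, no two-sided exact permutation test could give a p below 0.333.

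Microglia, the resident macrophages of the brain, had been sorted by flow cytometry from untreated 3-month-old C57BL/6 mice. In 2 libraries the label gives the genotype WT and in 2 it gives IRF8KO, that is, without the transcription factor interferon regulatory factor 8. The labels do not say whether the deletion was present in every cell of the mouse, or whether the libraries of a genotype came from separate animals. The isolation protocol writes of a brain of each genotype in the singular, so the spread between replicates may be technical only. ATAC-seq cuts open chromatin with the Tn5 transposase, and a peak is a place where cut sites pile up. Sequencing gave 46948938 tags for WT replicate 1, 48896408 for WT replicate 2, 78793572 for IRF8KO replicate 1 and 66224648 for IRF8KO replicate 2, so depth and genotype cannot be told apart. Values are the best pileup of a region, scaled to 1000000 tags of its library and called scaled pileup below; where 2 values are given for a genotype, replicate 1 comes first.

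The 6 genes code for C-type lectin-like receptors and lie in the natural killer gene complex. Clec7a codes for Dectin-1, the receptor of myeloid cells for fungal beta-glucans, which signals through Syk and Card9 and is a well-known marker of microglia responding to disease. Clec12a codes for an inhibitory receptor of myeloid cells, Clec1b for CLEC-2, the platelet receptor for podoplanin, and Clec9a for DNGR-1, a receptor of dendritic cells for actin exposed by dead cells. Clec1a codes for a receptor of fungal melanin, and Olr1 for LOX-1, a receptor of oxidised low-density lipoprotein. IRF8 reaches DNA together with the ETS factor PU.1 at a composite element, called ETS-IRF here and written GGAA, any 2 bases, then GAAA.

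The windows held 7 stretches of sequence to which the results below return. They are 151 bases around a summit, or, for Clec9a upstream region 2, around the middle between its WT and its IRF8KO summits. For the Clec7a promoter they are 200 bases just upstream of the annotated start. They are taken from the GRCm38 reference. Capitals mark matches to ETS-IRF, to the AP-1 motif (TGAGTCA or TGACTCA), to the PU.1 motif (GAGGAAGT), to the RUNX motif (TGTGGTTT or TGTGGTTA) or to the MAF motif (TGCTGAC or TGCTGAG), each on either strand.
Clec7a promoter (chr6:129472786-129472985, minus strand): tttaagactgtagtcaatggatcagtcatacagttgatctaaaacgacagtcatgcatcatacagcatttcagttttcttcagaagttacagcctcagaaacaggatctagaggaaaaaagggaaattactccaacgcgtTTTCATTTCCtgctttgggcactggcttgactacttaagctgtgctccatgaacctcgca
Clec7a intron region (chr6:129471425-129471575, plus strand): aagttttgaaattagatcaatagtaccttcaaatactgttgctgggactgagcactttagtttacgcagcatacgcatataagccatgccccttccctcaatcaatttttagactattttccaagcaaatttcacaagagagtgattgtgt
Clec7a upstream region (chr6:129474625-129474775, plus strand): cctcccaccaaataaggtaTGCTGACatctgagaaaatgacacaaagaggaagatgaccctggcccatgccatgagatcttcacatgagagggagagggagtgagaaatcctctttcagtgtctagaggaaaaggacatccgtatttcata
Clec12a intron region (chr6:129351278-129351428, plus strand): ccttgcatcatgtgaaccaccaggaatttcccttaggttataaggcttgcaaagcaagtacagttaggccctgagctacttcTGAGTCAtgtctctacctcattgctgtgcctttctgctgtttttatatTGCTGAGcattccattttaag
Clec9a upstream region 2 (chr6:129407409-129407559, plus strand): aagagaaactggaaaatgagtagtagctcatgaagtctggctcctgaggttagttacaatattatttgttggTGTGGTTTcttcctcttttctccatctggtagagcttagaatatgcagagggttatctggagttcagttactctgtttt
Olr1 intron region (chr6:129497968-129498118, plus strand): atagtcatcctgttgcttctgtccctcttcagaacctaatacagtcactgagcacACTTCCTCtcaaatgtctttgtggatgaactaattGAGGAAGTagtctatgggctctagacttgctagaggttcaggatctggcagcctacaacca
Olr1 exon region (chr6:129499903-129500053, plus strand): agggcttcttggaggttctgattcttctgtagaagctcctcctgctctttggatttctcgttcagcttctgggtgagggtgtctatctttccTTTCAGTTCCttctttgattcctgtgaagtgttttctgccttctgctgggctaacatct

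Between 29 and 43 peaks of each library fell in the windows, of which 20 to 33 were strict, meaning that their deposited −log10 q was 2 or more. Of the 57 regions, 16 had a peak in all 4 libraries and 20 in 1 library. Merging the strict peaks alone gave 43 regions. An IRF8KO-specific region was one with a strict peak in both IRF8KO libraries and no deposited peak in either WT library, and a WT-specific region the reverse. The windows held 5 IRF8KO-specific regions, 11.6% of 43, against 3.86% of 155546 strict regions over the genome, and 1 WT-specific region, 2.33%, against 5.58%. These shares describe a cluster picked for such regions and nothing is read from them. The same pattern between 1 library of each genotype and the other two was seen at 2 regions for WT replicate 1 with IRF8KO replicate 2, and at 0 for the 3 other such pairs. Over the genome the first pair had 1018 such regions of 155546, and the others had 263 to 689. Without IRF8KO replicate 2 there were 10 IRF8KO-specific regions, because 1 library then decides. WT-specific regions numbered 3 without WT replicate 2, 2 without IRF8KO replicate 1 and 3 without IRF8KO replicate 2.

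**Figure D1:**
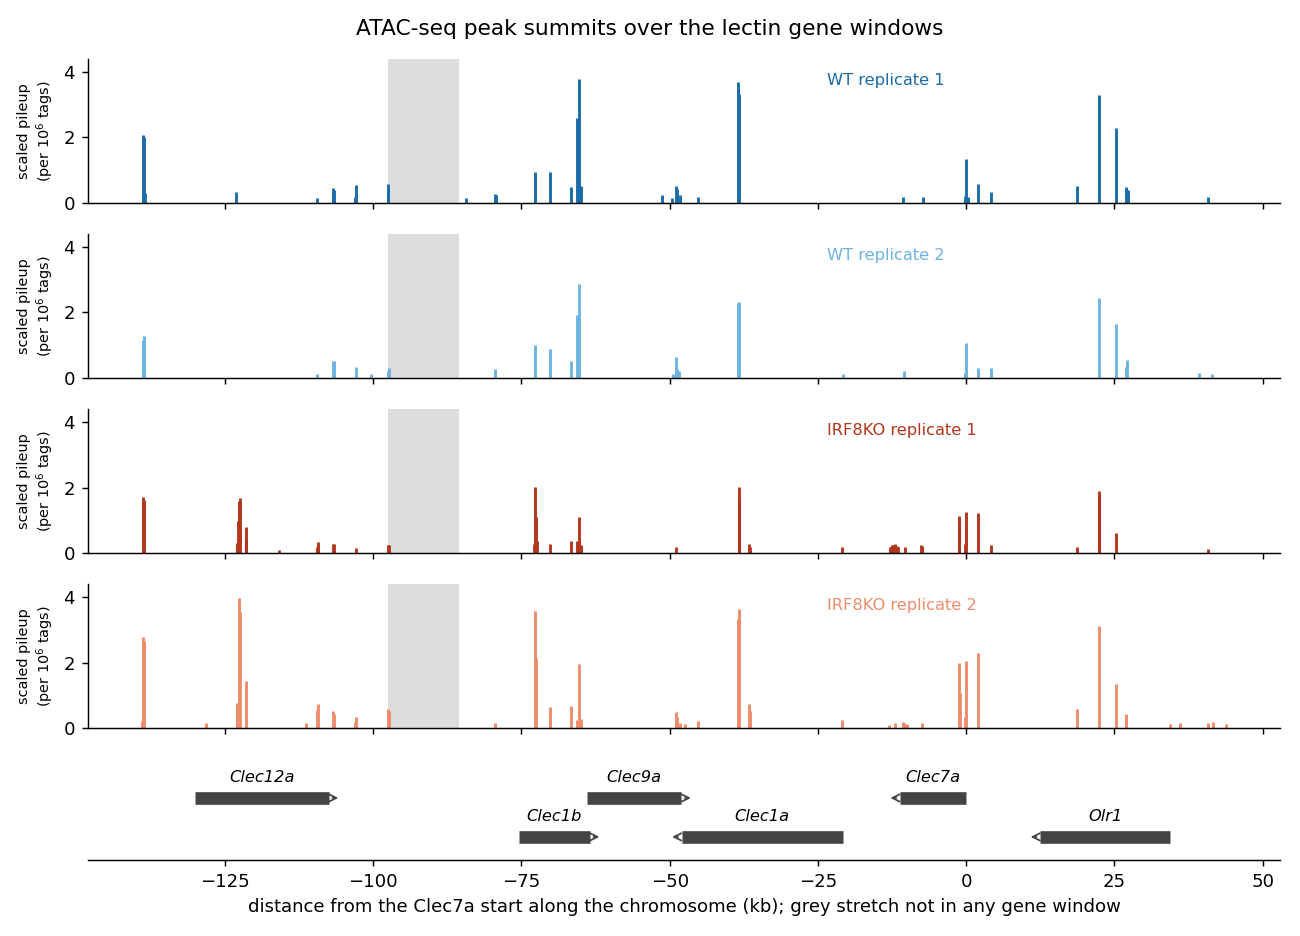
Scaled pileup per 1000000 tags (vertical axis) of every deposited summit against its distance in kb from the Clec7a start (horizontal axis), with 1 panel per library, the 6 genes and their direction drawn below, and the stretch outside all windows in grey. Sticks within Clec12a and just inside Clec7a stand in both IRF8KO panels and are missing or short in both WT panels.

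At Clec7a the promoter, picked for description after its values were seen, was open in every library. Its summit lay at -0.026 kb from the start, and scaled pileup was 1.34 and 1.06 in WT and 1.26 and 2.05 in IRF8KO. Genotypes overlapped, with IRF8KO replicate 2 highest and the other libraries close to one another. The log2 ratio of the means was 0.46, and 0.06 without IRF8KO replicate 2. The summit of the promoter peak was also at nearly one place, between 129472801 and 129472808 in the 4 libraries.

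On both sides of this promoter the libraries separated by genotype. The Clec7a intron region, 1.27 kb inside the gene, had no deposited peak in WT, while scaled pileup was 1.13 and 1.98 in IRF8KO, with −log10 q of 48.7 and 78.2. The Clec7a upstream region, at -1.92 kb from the start in intergenic sequence, was at 0.575 and 0.307 in WT and at 1.24 and 2.31 in IRF8KO. Both IRF8KO libraries stood above both WT libraries there, and the means were 0.441 ± 0.190 and 1.78 ± 0.754 (SD, n = 2), a ratio of 4.03. The log2 ratio was 2.01, and 0.87 by fold enrichment. In IRF8KO replicate 2 the upstream and the intron region were about as high as the promoter itself, whereas in WT the promoter was the tallest peak of the gene. The upstream region was picked for description after its values were seen.

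The other IRF8KO-specific region of the Clec7a window lay past the 3′ end of the gene, between Clec7a and Clec1a (chr6:129460458-129460861). It was weak, with scaled pileup of 0.279 and 0.166 in IRF8KO. The lowest scaled pileup at which any peak was deposited was 0.128 and 0.123 in WT and 0.102 and 0.106 in IRF8KO, so a WT signal under these levels would not have been listed. Requiring a scaled pileup of 0.3 of each strict peak, with any deposited peak of the other genotype still counting against a region, left 3 IRF8KO-specific regions in the windows. So did requiring a fold enrichment of 5. In their deposited values the regions that meet both conditions in both IRF8KO libraries are the Clec7a intron region and 2 regions of Clec12a described below. Deposited peaks below the strict threshold in the Clec7a window added several small places near the 3′ end. With peaks of any strength counted, 8 regions of all the windows were in both IRF8KO and neither WT library. By the same count 1 was in both WT and neither IRF8KO library. No genome share at any strength was taken, so nothing is read from these 2 counts.

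**Figure D2:**
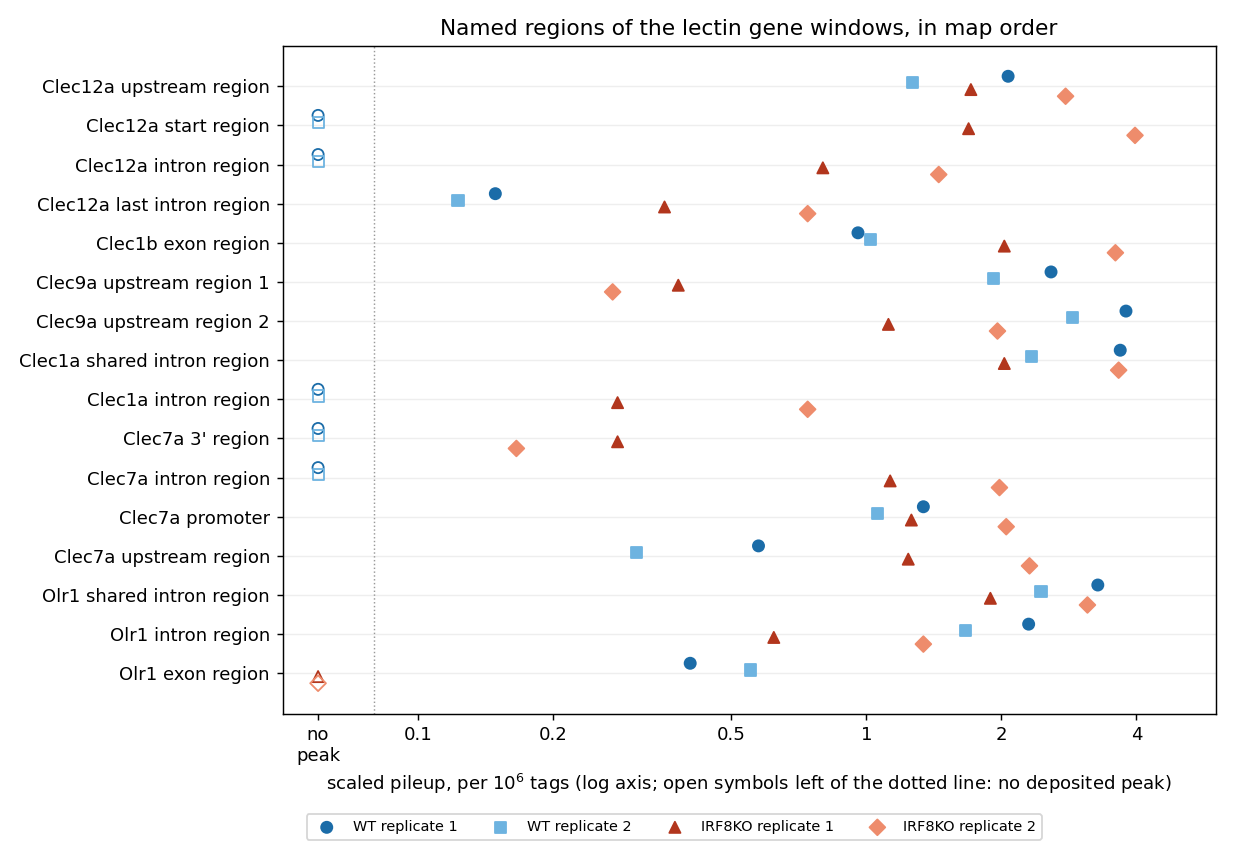
Scaled pileup per 1000000 tags (horizontal log axis) of 16 named regions in map order, with 1 symbol per library and open symbols left of the dotted line where a library has no peak. The Clec7a promoter shows overlapping genotypes, and the intron and upstream regions beside it show both IRF8KO libraries to the right of both WT libraries.

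Fold enrichment, the unscaled pileup plus 1 over the unscaled local background plus 1 in the same library, ordered the Clec7a promoter the other way. It was 16.1 and 16.0 in WT and 9.01 and 9.37 in IRF8KO, without overlap, and the log2 ratio by fold enrichment was -0.81 against 0.46 by scaled pileup. The 2 measures differ both by the local background and by the added 1, which lowers the ratio more in a shallower library, and both WT libraries were shallower. The added 1 therefore lowered the WT values more, which is against the direction of the change of order. That change came from the local background, given next as a density. How far the added 1 narrowed the gap was not computed. The density of cut sites in the 10 kb around the summit was solved from the deposited columns with that formula. At the Clec7a promoter this density was 8.67 and 6.46 cut sites per 10 kb per 1000000 tags in WT and 17.6 and 28.2 in IRF8KO, where evenly spread tags would give 5.35, the lowest value the caller uses. Both IRF8KO libraries were thus well above both WT libraries over the whole neighbourhood, in a count that includes the cut sites of the peaks themselves. At the Clec7a upstream region it was 9.29 and 6.59 in WT and 16.2 and 26.1 in IRF8KO. At the peak over the Clec1a start (129451812 to 129452035), the density was at that floor of 5.35 in each of the 3 libraries with a peak there.

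**Figure D3:**
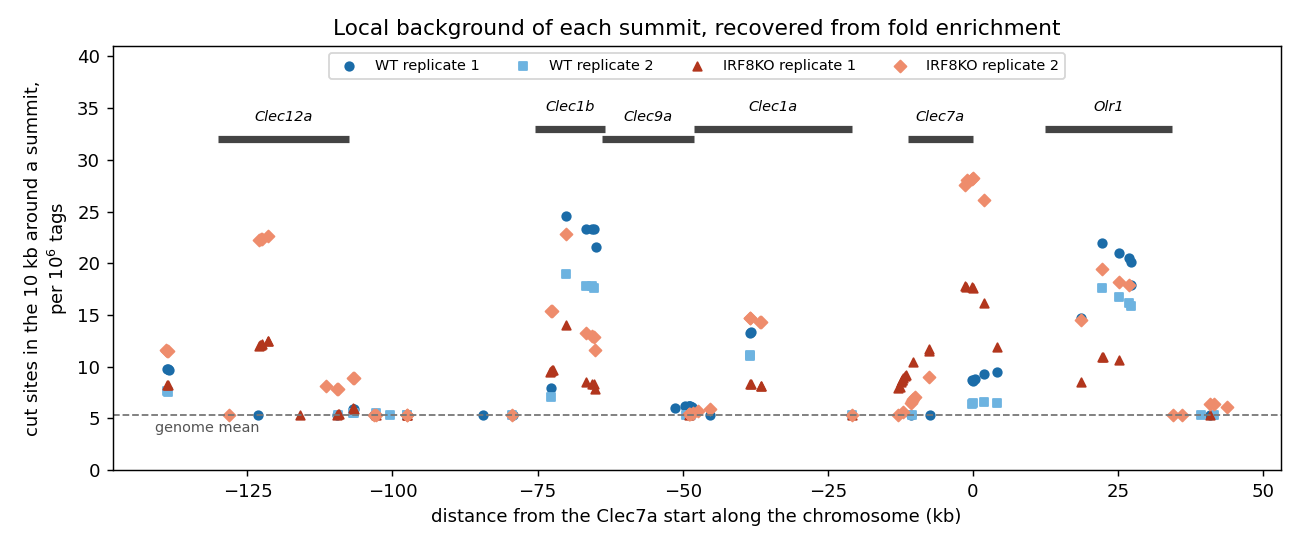
Cut sites in the 10 kb around each deposited summit, per 1000000 tags (vertical axis), against distance from the Clec7a start in kb (horizontal axis), with 1 symbol per library and the genome mean as a dashed line. At the Clec7a promoter the IRF8KO symbols lie at 17.6 and 28.2 and the WT symbols at 8.67 and 6.46, while upstream of Clec9a WT replicate 1 is highest.

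Clec12a held the strongest IRF8KO-specific region of the cluster. It covered a start of a Clec12a transcript (chr6:129349867-129350392, in annotated UTR sequence at the summit), with scaled pileup of 1.69 and 3.97 in IRF8KO and no deposited peak in WT. A small neighbour directly before it (chr6:129349602-129349770, picked after its values were seen) had peaks of 0.341 in WT replicate 1, 0.305 in IRF8KO replicate 1 and 0.785 in IRF8KO replicate 2, so the site was not without signal in all WT libraries. The Clec12a intron region, 1.39 kb inside the same transcript, was at 0.800 and 1.45 in IRF8KO with no peak in WT. A last intron region (chr6:129363227-129363701, picked after its values were seen) was at 0.149 and 0.123 in WT and 0.355 and 0.740 in IRF8KO, without overlap and with a ratio of 4.03. Its log2 ratio of 2.01 was 1.39 without IRF8KO replicate 2, and both WT peaks were below the strict threshold, at −log10 q of 1.11 and 0.453. By contrast the intergenic region at -8.74 kb from the gene's start, also picked after its values were seen, was among the highest of the cluster in both genotypes, at 2.07 and 1.27 in WT and 1.71 and 2.78 in IRF8KO, and the genotypes overlapped.

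The windows of Clec1b and Clec9a overlap, and the stretch they share held regions of both directions. The Clec1b exon region (chr6:129399840-129400324, its summit in a coding exon) was at 0.958 and 1.02 in WT and 2.03 and 3.59 in IRF8KO, a ratio of 2.84 without overlap. Further on, 2 adjoining regions upstream of Clec9a were lower in IRF8KO. The first of them (chr6:129407008-129407236) was at 2.58 and 1.92 in WT and 0.381 and 0.272 in IRF8KO. These genotypes lay far apart, at means of 2.25 ± 0.463 and 0.326 ± 0.0770 (SD, n = 2), a ratio of 0.15. The second, Clec9a upstream region 2, was at 3.79 and 2.88 in WT and 1.12 and 1.96 in IRF8KO, again without overlap, with a ratio of 0.46. By fold enrichment the log2 ratios of the pair were nearer to 0, at -1.74 against -2.79 by scaled pileup for the first and at -0.23 against -1.12 for the second. Both lie within a transcript of Clec1b annotated as a retained intron, and the first and the Clec1b exon region were picked after their values were seen.

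The second of these regions also moved its summit. The summit was at 129407446 and 129407449 in WT and at 129407520 and 129407523 in IRF8KO, a shift of 74 bp with at most 3 bp between replicates. Among the 15 regions of the windows with a strict peak in all 4 libraries this was the only 1 displaced by 50 bp or more with replicates within 10 bp, against 1.92% of 48262 such regions over the genome. A RUNX match (TGTGGTTT at 129407481 to 129407488), capitalised in the sequence of this region above, lies between the WT and the IRF8KO summits. The pileup is the best of any summit in the region, so the WT and the IRF8KO values of this region were not read at the same base.

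Clec1a and Olr1 held the 2 regions of highest mean pileup in the cluster, and neither separated the genotypes by scaled pileup. The Clec1a one, deep in an intron (chr6:129434220-129434642), was at 3.68 and 2.33 in WT and 2.03 and 3.65 in IRF8KO. At Olr1 the other (chr6:129494940-129495398), also intronic, was at 3.28 and 2.45 in WT and 1.89 and 3.11 in IRF8KO. By fold enrichment the Olr1 one did separate them, at 18.2 and 16.6 in WT and 20.7 and 19.9 in IRF8KO. In scaled pileup, WT replicate 1 and IRF8KO replicate 2 were high in each and the other 2 libraries lower. Close to the Clec1a intron peak lay an IRF8KO-specific region (chr6:129436118-129436372) at 0.279 and 0.740 in IRF8KO.

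Olr1 held the only WT-specific region of the windows. This Olr1 exon region, whose summit is in a coding exon, was at 0.405 and 0.552 in WT with no deposited peak in IRF8KO. It was absent from the WT-specific list at a −log10 q of 5 or a fold enrichment of 5, which left 0. The Olr1 intron region beside it, picked after its values were seen, was at 2.30 and 1.66 in WT and 0.622 and 1.34 in IRF8KO, a ratio of 0.50 without overlap. Its log2 ratio of -1.01 was -1.67 without IRF8KO replicate 2. No library had a strict peak within 1 kb of the start of any annotated Olr1 transcript. Counting every annotated transcript start in this way, such a peak was present in all 4 libraries at Clec7a and Clec1b, in WT replicate 1 and both IRF8KO libraries at Clec12a, in both IRF8KO libraries at Clec1a and in IRF8KO replicate 1 alone at Clec9a. At Clec9a only the edge of a peak of Clec9a upstream region 2 came within 1 kb. That region had a strict peak in all 4 libraries and was higher in WT.

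Over the 16 regions with a peak in all 4 libraries, 3 were higher in both IRF8KO than in both WT libraries, against 11.8% of 58732 such regions over the genome, and 5 were higher in both WT libraries, against 37.2%. The other 8 overlapped. This split depends on the scaling. Tag numbers put the genome's median log2 ratio of IRF8KO over WT at -0.28. Scaling each library by its median ratio to the geometric mean over strict regions of all 4 libraries puts it at -0.01 and makes the genome shares 29.2% and 29.9%. With that scaling 6 regions of the windows were higher in both IRF8KO libraries, the Clec7a promoter and the region upstream of Clec12a among them, and 5 were higher in both WT libraries. Leaving out a library at tag-number scaling gave 9 regions higher in WT without WT replicate 2 and 12 without IRF8KO replicate 2, and 6 higher in IRF8KO without WT replicate 1 and 8 without IRF8KO replicate 1. The median log2 ratio of the 16 was -0.14 by tag number and 0.12 by median ratio. The directions named above for the Clec7a upstream, Clec12a last intron, Clec1b exon, both Clec9a upstream and Olr1 intron regions were the same under both scalings and by fold enrichment.

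Summed over all deposited peaks, the window of Clec7a came to 3.00 and 2.21 in scaled pileup in WT and 5.46 and 7.70 in IRF8KO. Both IRF8KO libraries were above both WT libraries, with a ratio of means of 2.52, and 3.08 by median ratio. Clec12a came to 4.35 and 2.66 in WT and 5.69 and 11.7 in IRF8KO, also without overlap, though IRF8KO replicate 2 carried most of the difference and the log2 ratio of 1.32 was 0.70 without it. Clec1b was lower in IRF8KO, at 9.95 and 7.51 in WT and 4.56 and 7.34 in IRF8KO, with the nearest libraries of the 2 genotypes almost equal. Clec9a, Clec1a and Olr1 overlapped by tag number, with ratios of 0.74, 1.09 and 0.72, and Clec1a was higher in IRF8KO by median ratio. The log2 ratio of Olr1, -0.48, was -1.09 without IRF8KO replicate 2. Over 17254 genes with peaks in all 4 libraries the median log2 ratio of such sums was -0.32, and the 5th and 95th percentiles were -1.16 and 0.70. Clec7a was chosen for its genotype difference, so its ratio is not read against these. With 5 kb on each side in place of 10 kb, which leaves out the regions at the window edges, the log2 ratio was 2.18 for Clec12a and -1.34, against -0.43, for Clec9a. Each sum moves with how many peaks were called, which for Clec7a was 7 and 6 in WT and 11 and 11 in IRF8KO.

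**Figure D4:**
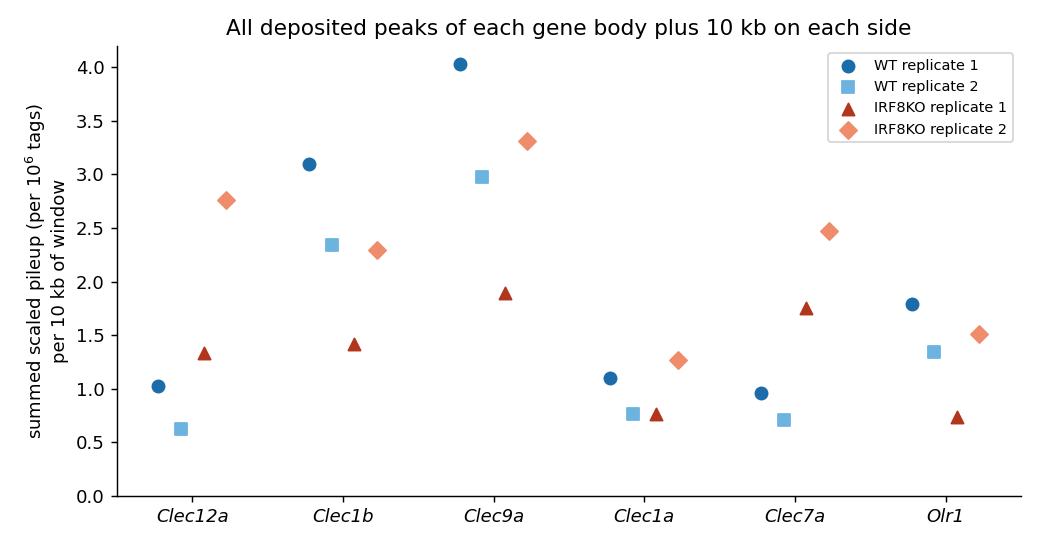
Summed scaled pileup of all deposited peaks, per 10 kb of window (vertical axis), for each of the 6 genes with 1 symbol per library. For Clec7a and Clec12a both IRF8KO symbols lie above both WT symbols, for Clec1b both lie below, and for Clec9a, Clec1a and Olr1 they overlap.

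The genes whose window sums over the 4 libraries were most like those of Clec7a, by the distance between log2(sum + 0.1) values among 21801 genes, were Gm28845 (0.27), Ifi207 (0.33), Nell2 (0.33), Ripk4 (0.34) and Chst3 (0.34). Ifi207, an interferon-inducible gene, was at 2.96 and 2.02 in WT and 6.70 and 7.25 in IRF8KO. Likeness here is one of levels in 4 libraries, each of which lends its depth to every gene.

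Motif letters were counted within 100 bp of the summits of the 43 strict regions, on both strands, for 10 motifs. The ETS-IRF element was in 2 of 43 regions, 4.65%, against 4.30% over the genome. One was the Clec7a promoter, where the element starts 31 bp from the summit, and the other was the WT-specific Olr1 exon region. None of the 5 IRF8KO-specific regions held it. Over the genome the share was 18.7% for WT-specific regions and 1.83% for the IRF8KO-specific ones. Among 32851 RefSeq promoters of 300 bases (GRCm38) 2.72% held it. The table has 6 promoters of the lectin genes, Clec1a not searched, and the 2 that held it are both of Clec7a.

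An AP-1 match TGAGTCA started 7 bp after the summit of the Clec12a intron region and 8 bp before that of the Clec12a last intron region, the former in capitals above. The other AP-1 match, TGACTCA, lay by a region upstream of Clec1b (chr6:129393242-129393385). In all, 3 of 43 regions held AP-1 letters, 6.98% against 5.91% over the genome. The CEBP motif, TTGC, any 2 bases, then AA, was in 8 regions, 18.6% against 9.54%. These included the Clec12a start region, 12 bp from its summit, and the Clec7a intron region, 92 bp from its summit and so beyond the printed bases. With 50 bp on each side it was in 5, 11.6% against 4.75%. The 3 regions with PU.1 letters all lay in introns of Olr1. In the highest of them the match starts at the summit itself, and the Olr1 intron region holds 2 matches in opposite directions. PU.1 letters were in 6.98% of the regions against 7.74% over the genome, RUNX in 4 regions (9.30% against 3.18%) and MAF in 6 (14.0% against 12.1%). NF-kB (GGG followed by ACTTTCC or AATTTCC or AATTCCC) and the E-box CACGTG were in 1 region each, the interferon-stimulated element (GAAA, any 2 bases, then GAAA) and MEF2 (CTAAAAATA or CTATTTATA) in 0. ETS-IRF and PU.1 letters can overlap, and a match is a description of the sequence, not of binding.

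The summed scaled pileup at the starts of cell type markers did not overlap between genotypes for several lists. These sums are by tag number alone. By that scaling 37.2% of 58732 regions with a peak in all 4 libraries were higher in both WT libraries over the genome. In both IRF8KO libraries 11.8% were higher. Such shares were not taken for sums over gene lists. Of 12 microglia markers, 12 had a strict peak within 1 kb of the start in both WT libraries and 11 in both IRF8KO libraries, Sall1 being the 1 missing, and the summed scaled pileup at these starts was 45.5 and 35.0 in WT and 18.1 and 27.8 in IRF8KO. Of 6 markers of border macrophages, the macrophages of the meninges and perivascular spaces, 2 and 3 were open in WT and 4 and 5 in IRF8KO, with sums of 1.32 and 1.64 in WT and 4.32 and 9.30 in IRF8KO. Cd163 and Ms4a7 were open only in the IRF8KO libraries and Lyve1 in none. The part of such cells in the Clec7a and Clec12a values was not tested, and in bulk libraries more cells of a type and more accessible copies per cell cannot be told apart. Monocyte markers were open at 0 and 1 of 5 starts in WT and 1 and 2 in IRF8KO, with no strict peak at Ly6c2, Ccr2 or Plac8 in any library. Of 6 dendritic cell markers 4, 3, 3 and 3 were open in WT replicate 1, WT replicate 2, IRF8KO replicate 1 and IRF8KO replicate 2, with Xcr1 and Itgae, which like Clec9a mark one subset, open in none. Platelet markers, relevant to Clec1b, were open at 2 of 5 starts in each library and Ppbp at none. Their sums were 2.43 and 2.52 in WT and 1.04 and 2.19 in IRF8KO, lower in both IRF8KO libraries. The sum of the Clec1b window was also lower in both, whereas the Clec1b exon region was higher in both. The part of platelets in the Clec1b values was not tested. NK cell markers were open at 2, 1, 2 and 2 of 6 starts in the same order, with Ncr1, Klra8 and Gzma at none. Klrb1c was open only in both IRF8KO libraries, Prf1 only in WT replicate 1 and Eomes in all 4 libraries. The NK cell sums were 0.703 and 0.491 in WT and 0.863 and 0.982 in IRF8KO. Sums were also lower in both IRF8KO libraries for endothelial markers (10.2 and 8.08 in WT, 3.19 and 3.81 in IRF8KO) and oligodendrocyte markers (3.11 and 2.50, then 0.926 and 2.14). They were higher in both for B or T cell markers (1.11 and 1.31, then 3.44 and 3.44). None of these was tested for a part in the lectin gene values.

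The 7 other genes of the stretch, Clec12b, Tmem52b, Gabarapl1, Clec2d, Cd69, Klrd1 and Klrk1, held 26 strict regions, 1 of them WT-specific (3.85% against 5.58% over the genome) and 0 IRF8KO-specific (against 3.86%), counts too small to set apart from the background. The 1 was weak and near Gabarapl1, a gene of autophagosome formation, at 0.213 and 0.184 in WT. Of these 26 regions, 9 also lie in the lectin windows.

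The 18 listed genes of Clec7a signalling and of related receptors held 316 strict regions. Among them were the adaptor chain Fcer1g, the kinase Syk, Card9, Bcl10 and subunits of NF-kB. Of these 13 were WT-specific, 4.11% against 5.58% over the genome, and 11 IRF8KO-specific, 3.48% against 3.86%, so both shares were near the background. All 18 starts were open in all 4 libraries. Fcer1g, Syk, Card9, Bcl10, Malt1, Rela and Tlr2, the partner receptor of Dectin-1, held none of either kind. The strongest WT-specific regions were near Nfkb1, an NF-kB subunit, at 2.19 and 2.07, and near Ptpn6, the phosphatase SHP-1, at 1.98 and 1.43. The strongest IRF8KO-specific region was near Plcg2, the phospholipase downstream of Syk, at 0.647 and 0.544, and Nfatc2 held 4 WT-specific regions and 0 of the other kind.

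The 14 other C-type lectin genes of myeloid cells held 79 strict regions, 3 of them WT-specific (3.80% against 5.58% over the genome) and 15 IRF8KO-specific (19.0% against 3.86%). Of the 15, 8 lay at 1 gene, Colec12, a scavenger receptor, whose window came to 0.916 and 0.614 in WT and 6.13 and 11.2 in IRF8KO. Clec4e, which codes for Mincle, a receptor of mycobacterial glycolipids, held no deposited peak in WT and came to 0.520 and 0.831 in IRF8KO. Its neighbour Clec4d was at 0.447 and 0 in WT and 2.13 and 5.10 in IRF8KO. Clec4n, Clec5a, Mrc1 and Cd207 held 1 or 2 IRF8KO-specific regions each, and Mrc1 is also one of the border macrophage markers. WT-specific regions were at Clec4a2 (1.04 and 0.573 in WT), Clec4f and Cd209a. The list was drawn up with earlier results of these libraries known, so its counts are a description.

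At the edges of the windows, the outermost regions inside were the one upstream of Clec12a described above and a single peak of 0.151 in IRF8KO replicate 2 near Tmem52b. Just outside lay a region at 0.277 and 0.164 in WT and 0 and 0.196 in IRF8KO on the Clec12a side, and one at 0.575 and 0.429 in WT and 0.457 and 0.876 in IRF8KO on the Olr1 side. Neither of these separated the genotypes. The next region out on the Clec12a side (chr6:129326420-129326958), also outside the windows, had no deposited peak in WT and was at 0.444 and 0.906 in IRF8KO, and the next on the Olr1 side was at 0.596 and 0.450 in WT and 0.330 and 0.604 in IRF8KO, with overlap.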

How the data were processed

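Each of the 4 libraries has 1 deposited peak list. Per the submitters' processing notes reads were mapped to mm10 (GRCm38) with Bowtie2. Per the file headers peaks were called per library with MACS2 2.1.1.20160309, with no control and a p threshold of 0.01, with cut sites moved by -37 bp and extended to 73 bp, which centres Tn5 cuts, and with local background over 10000 bp. The deposited pileup is a signal, the depth of extended cut sites, unscaled. Fold enrichment as deposited is a ratio to local background, taken here to have 1 added to both unscaled values, the default of MACS2. The deposited p and q are −log10 values, and the q column was used although the headers say q was not calculated. Peak lengths and summit positions, per the file headers, are in bp.

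Distinct peaks kept their best summit, and peaks sharing 1 bp or more were merged into regions. Pileup was scaled to 1000000 tags. Depth is given with the results, and tag size, 50 bp in WT and 49 bp in IRF8KO, also followed genotype. Local background was solved from pileup and fold enrichment. Scripts ran in Python 3.11.15 with numpy 2.4.6 and pandas 2.3.3 and were tested on simulated peaks. The members, gene lists and motifs were chosen with earlier results of these data known. Named were the 6 lectin genes, listed genes with a genotype-specific region, and in the windows each genotype-specific region and the 3 regions of highest mean, and others are marked as picked after their values were seen. Alternatives were other thresholds, overlaps, flanks and scalings and leaving out each library.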

Additional observations from a re-analysis of the deposited data

How the results depend on the processing

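Of 159 alternatives for 24 results, 138 stayed within the main value's spread between replicates, or within 1.5 times a main count, 21 moved further, and 0 reversed a difference that had been called. The 5 IRF8KO-specific regions became 8 with every deposited peak counted, and 3 at a fold enrichment of 5 or with strict peaks of at least 0.3 scaled pileup (the last chosen after seeing the data). The single WT-specific region became 0 at a −log10 q of 5 and at a fold enrichment of 5. The 3 regions higher in IRF8KO became 6 both by median-ratio scaling and by fold enrichment. By fold enrichment the log2 ratio was 0.87 at the Clec7a upstream region, against 2.01, and -0.81 at the Clec7a promoter, against 0.46; local background differed between genotypes there, as given above.

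Leaving out 1 library at a time gave 1 to 3 regions specific to WT, 6 to 10 specific to IRF8KO, 5 to 12 regions higher in WT and 3 to 8 higher in IRF8KO (the last pair added after seeing the data), counts that can only grow or stay when fewer libraries must hold a pattern. It gave log2 ratios of 0.06 to 0.77 at the Clec7a promoter, 1.50 to 2.53 at the upstream region and 1.07 to 1.57 for the Clec7a window, and 2 ETS-IRF matches each time. Regions higher in WT numbered 9 without WT replicate 2 and 12 without IRF8KO replicate 2, and those higher in IRF8KO 6 without WT replicate 1 and 8 without IRF8KO replicate 1. Scaling by tags left after filtering was not run, as only 1 tag number is used here. No paired analysis was possible because the results come from no test, so there is no fit to which a block could be added. Depth limits the weak regions, since a scaled pileup under 0.123 in WT or 0.102 in IRF8KO was not listed.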
